A study of Arabidopsis thaliana with 3 samples.

Results

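The CP29 antenna genes LHCB4.1, LHCB4.2 and LHCB4.3 and the photosystem II subunit gene PSBW were followed in cold-treated Arabidopsis thaliana plants of the hy5-1 mutant and of its wild type Landsberg erecta (Ler). They are 4 of the 7234 loci named on the arrays and were picked by locus, with earlier results of the same mutant and wild-type ratios known. Their ratios are therefore given as a description, with no test of any of the 4. The hy5-1 group consisted of mutant plants and the Ler group of plants carrying functional HY5; both were 3 weeks old, had grown at 22 °C in days of 16 h light and nights of 8 h, and had then spent 1 day at 4 °C. No plants kept warm were compared. Each of 3 arrays carried hy5-1 RNA in the Cy5 channel and Ler RNA in the Cy3 channel, and the labels call the arrays biological replicates. The plant part is not given in the sources used here. The files hold ratios without intensities, so no marker gene could be checked for presence.

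Photosystem II takes up light through pigment-binding antenna proteins around a core that splits water. CP29 is a minor antenna protein that sits between the core and the trimers of the major antenna, passes excitation energy inward and is phosphorylated by thylakoid kinases. Arabidopsis makes CP29 from 3 nuclear genes. LHCB4.3 differs most from the others, encodes a protein shortened at its C terminus, and is known as a gene expressed more under strong light. PSBW is a small nuclear-encoded membrane protein of the core and is needed for stable supercomplexes of core and antenna. HY5 is a bZIP transcription factor that acts downstream of the photoreceptors, binds many light-regulated promoters and accumulates at low temperature.

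The genes lie on 3 chromosomes in assembly TAIR10.1. LHCB4.1 (AT5G01530) spans positions 208866 to 210548 of chromosome 5, and LHCB4.2 (AT3G08940) positions 2717557 to 2718923 of chromosome 3. LHCB4.3 (AT2G40100) spans 16745628 to 16747424 and PSBW (AT2G30570) 13019028 to 13020311, both on chromosome 2. RefSeq lists 1 transcript each for LHCB4.1 and PSBW and 2 each for LHCB4.2 and LHCB4.3. Every one of the 4 loci had 1 named feature, so its ratio is that of a single probe, and the probe's place within the gene is not given in the sources used here. LHCB4.1 and LHCB4.2 encode closely similar proteins. Whether the probe of one also bound RNA of another was not tested.

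All ratios below are log2 ratios of hy5-1 over Ler if, as is likely, the deposited sign runs as Cy5 over Cy3. The sample titles name Ler before hy5, and under the opposite reading every direction would turn. The dyes were the same way round on all arrays, so a dye effect of a probe and a genotype difference cannot be told apart. Whatever plant part was used, fewer cells of a type and less RNA per cell cannot be told apart either.

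LHCB4.3 had the highest mean of the 4 genes. Its log2 ratios on arrays 1, 2 and 3 were 1.56, 1.34 and 1.34. The values lay close together and all far above 0, and their mean was 1.41 ± 0.13 (SD, n = 3), a 2.66-fold higher level in hy5-1 that ran from 2.53-fold to 2.95-fold over the arrays. Among the 7234 loci it ranked 25 from the top on array 1, 40 on array 2, 20 on array 3 and 4 by the mean. It was the only named locus at or above its own lowest value, 1.34, on all 3 arrays, a cut-off taken from the gene itself. Above 1 on all 3 arrays were 2 named loci, LHCB4.3 included. Other loci ranked above it on single arrays, but none of them was as high on every array.

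LHCB4.1, the CP29 gene with the lowest ratio, went the other way. Its log2 ratios on arrays 1, 2 and 3 were -0.64, -0.49 and -0.66. All 3 values were below 0 and within a narrow range, with a mean of -0.60 ± 0.09 (SD, n = 3), a 1.51-fold lower level in hy5-1 that ran from 1.4-fold to 1.58-fold over the arrays. It ranked 646, 987 and 478 from the bottom on arrays 1, 2 and 3 and 569 from the bottom by the mean. A larger mean in either direction was seen in 12.5% of loci, so the difference was of moderate size for these arrays.

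LHCB4.2, the near copy of LHCB4.1, was above 0 on every array but unevenly so. Its log2 ratio stood at 1.24 on array 2, at 0.39 on array 1 and at 0.45 on array 3. Array 2 stood well apart from the other 2 arrays. The mean was 0.69 ± 0.47 (SD, n = 3), a 1.62-fold higher level in hy5-1 with single arrays from 1.31-fold to 2.36-fold. Without array 2 the mean log2 ratio was 0.42. The rank from the top was 50 on array 2, against 1261 on array 1 and 783 on array 3, and 187 by the mean.

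PSBW followed the same order of arrays as LHCB4.2 only in part. Arrays 1, 2 and 3 gave log2 ratios of 1.01, 1.57 and 0.81. Array 2 was again the highest, but here the other arrays were also far above 0. The mean was 1.13 ± 0.39 (SD, n = 3), a 2.19-fold higher level in hy5-1 that ran from 1.75-fold to 2.97-fold. PSBW ranked 89, 25 and 146 from the top on arrays 1, 2 and 3 and 14 by the mean. Without array 2 its mean log2 ratio was 0.91.

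**Figure D1:**
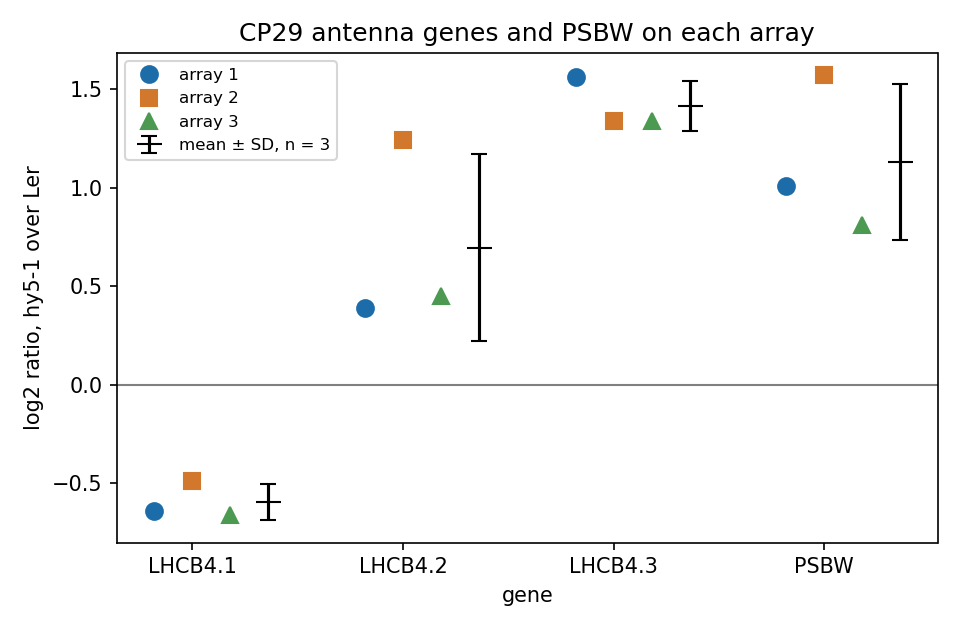
Log2 ratio of hy5-1 over Ler (vertical axis) for each of the 4 genes (horizontal axis), with 1 symbol per array and the mean ± SD of 3 arrays in black. LHCB4.1 lies below 0 on every array and the other 3 genes above 0, and LHCB4.2 and PSBW are highest on array 2, at 1.24 and 1.57.

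The genes also differed in their spread over arrays. The median SD over all named loci was 0.19 on the log2 scale. LHCB4.1 and LHCB4.3 were below it, and 18.5% and 30.1% of loci had a smaller SD than they had. LHCB4.2 and PSBW were well above it, with 92.2% and 87.2% of loci showing a smaller SD. Thus the gene lowest in hy5-1 and the gene highest in hy5-1 were the steady ones.

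**Figure D2:**
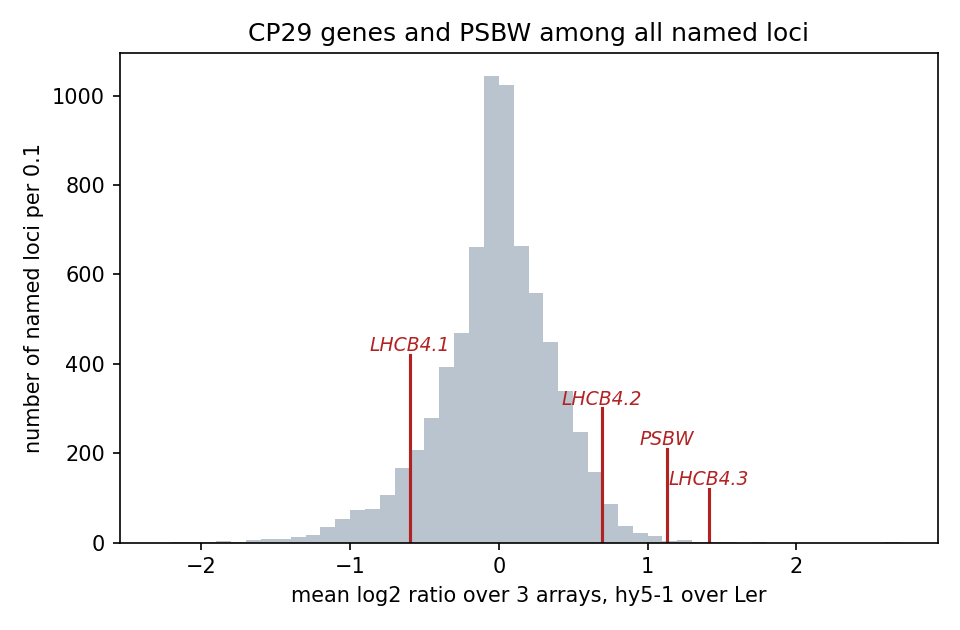
Number of named loci (vertical axis) by mean log2 ratio of hy5-1 over Ler over 3 arrays (horizontal axis, steps of 0.1), with the 4 genes marked by lines whose heights carry no value. LHCB4.3 at 1.41 and PSBW at 1.13 lie far out in the thin right tail. LHCB4.2 at 0.69, ranked 187 from the top, lies further in on that tail, and LHCB4.1 at -0.60 lies on the left shoulder.

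Differences between the genes were taken within each array, where both ratios share the same pair of RNA samples. LHCB4.3 exceeded LHCB4.1 by 2.2, 1.83 and 2.0 on arrays 1, 2 and 3, a mean difference in log2 ratio of 2.01 ± 0.19 (SD, n = 3). The balance of LHCB4.3 to LHCB4.1 RNA was thus 4.03-fold higher in hy5-1 than in Ler, as far as single probes report it. LHCB4.2 exceeded LHCB4.1 by 1.03, 1.73 and 1.11, with a mean of 1.29 ± 0.38 (SD, n = 3). These 2 near copies therefore differed on every array, by the widest margin on array 2.

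By mean log2 ratio the order was LHCB4.3, PSBW, LHCB4.2 and LHCB4.1. The first pair of neighbours did not differ beyond the spread: LHCB4.3 minus PSBW was 0.55, -0.23 and 0.53 on arrays 1, 2 and 3, which changed sign on array 2. PSBW minus LHCB4.2 was 0.62, 0.33 and 0.36, so PSBW was the higher of these 2 on each array. LHCB4.3 minus LHCB4.2 was 1.17 on array 1 and 0.89 on array 3 but 0.10 on array 2, with a mean of 0.72 ± 0.55 (SD, n = 3). On array 2 alone, then, LHCB4.2 and LHCB4.3 had nearly the same ratio.

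Other photosynthesis genes were taken from 6 lists of 110 genes, of which 11 had a named feature, the 4 genes included. None of the lists of photosystem I, of antenna phosphorylation and delivery, or of light and plastid regulators had a measured gene, and HY5 itself was not analysed here. The major antenna genes LHCB1 to LHCB3 and the minor antenna genes LHCB5 and LHCB6 were also not analysed here, so the CP29 genes cannot be set beside the rest of the antenna. Over all loci, 17.2% passed the limma threshold (adjusted p below 0.05 by the Benjamini-Hochberg method), 7.88% higher and 9.29% lower in hy5-1. Without array 1 or without array 3 limma called 0 loci, with 1613 and 1585 at an unadjusted p under 0.05, so every call given here needs both of these arrays. Once each array was multiplied to give all 3 an equal median absolute deviation of their features, the share was 5.41%, and with an unmoderated statistic no locus passed, with 1625 at an unadjusted p under 0.05. Of the 7 further photosynthesis genes, 0 passed by limma. An unadjusted p under 0.05 by limma was found in 4 of these 7, against 2627 of all 7234 loci. The median of the mean log2 ratios of these 7 genes was 0.43, against 0 over all named loci, and it was 0.24 without array 2.

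Among the photosystem II genes of these lists, PSB27, an assembly factor of the lumen, had log2 ratios of 0.37, 0.90 and 0.11 on arrays 1, 2 and 3. The mean was 0.46 ± 0.40 (SD, n = 3) and limma gave an adjusted p of 0.124. PAM68, a membrane protein needed for early assembly of photosystem II, had 0.54, 0.57 and 0.19, averaging 0.43 ± 0.21 (SD, n = 3), and its adjusted p by limma was 0.0622. Both were above 0 on all 3 arrays without passing. The same sign on all 3 arrays, in either direction, was seen in 54.5% of all named loci. The smaller share above 0 on all 3 arrays was not counted.

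PSBY, another small membrane subunit of photosystem II, had log2 ratios of -0.26, 0 and -0.21, with a limma adjusted p of 0.333. Unlike PSBW, it was not above 0 on any array. AT5G07020 and AT1G54500, listed with the photosystem II factors, had mean log2 ratios of -0.07 and 0.26 and changed sign between arrays. The difference between PSBW and PSBY was not tested.

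Outside photosystem II, AT2G26500, from the list of other electron transport, had log2 ratios of 0.67, 1.38 and 0.31. Its mean of 0.79 ± 0.54 (SD, n = 3) was the largest of the 7, with a limma adjusted p of 0.0651. ATPC1, the gamma subunit of the chloroplast ATP synthase, had 0.22, 0.85 and 0.22, averaging 0.43 ± 0.36 (SD, n = 3), and its adjusted p by limma was 0.122. Both genes were above 0 on every array and highest on array 2, as LHCB4.2 and PSBW were.

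**Figure D3:**
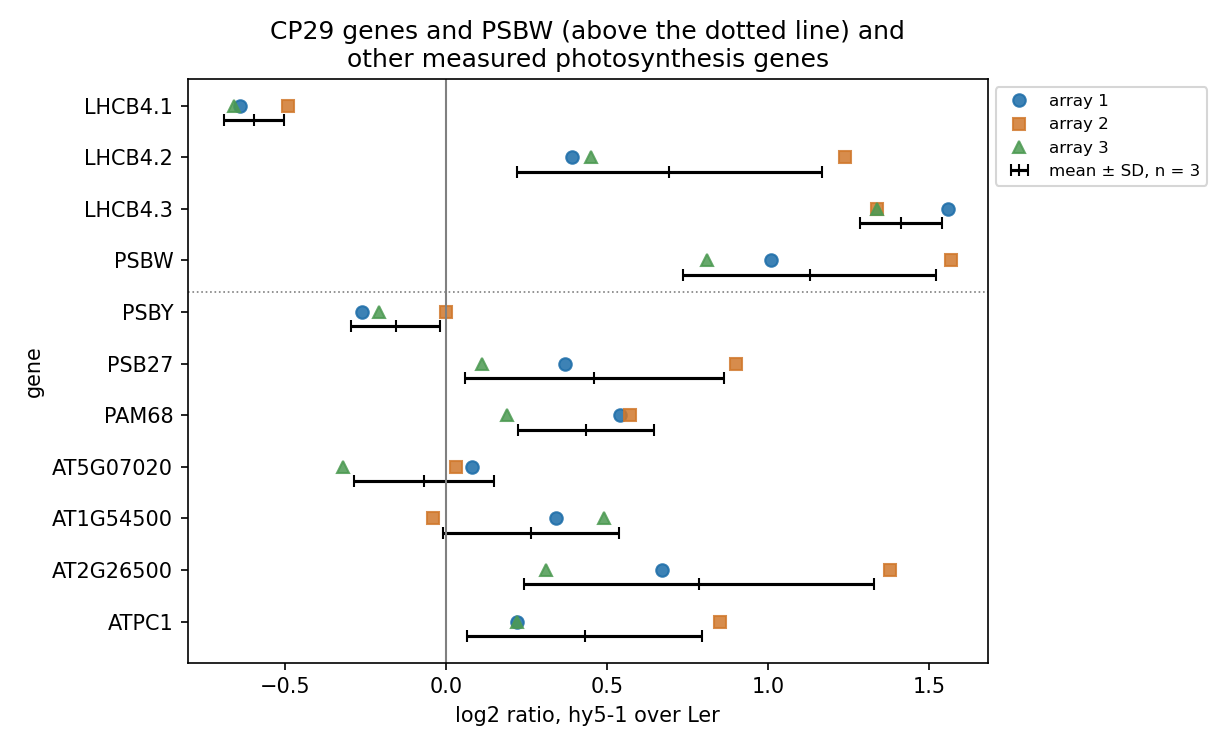
Log2 ratio of hy5-1 over Ler (horizontal axis) for the 4 genes above the dotted line and the 7 other measured photosynthesis genes below it (vertical axis), with 1 symbol per array and the mean ± SD of 3 arrays as a black bar. Of the 7, PSB27, PAM68, AT2G26500 and ATPC1 lie above 0 on all arrays, and 3 of these are highest on array 2 by a clear margin. Over all named loci, 54.5% had the same sign on all 3 arrays, counting loci above 0 and loci below 0 together.

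The place of array 2 was then described for each gene as its log2 ratio minus the mean of arrays 1 and 3. This departure was 0.82 for LHCB4.2, with 2.65% of all loci departing further upward, and 0.66 for PSBW, with 4.64% further upward. It was 0.16 for LHCB4.1 and -0.11 for LHCB4.3, with 29.9% and 63.5% of loci departing further upward. Of the CP29 genes, LHCB4.2 thus stood apart on array 2 and the other 2 did not.

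Of the 11 measured photosynthesis genes, 9 were higher on array 2 than on the mean of the other arrays. That share was 81.8%, against 48.6% of all loci. The 11 include LHCB4.2 and PSBW, whose departures are given above and are counted again here. Among the 7 further photosynthesis genes alone, 6 were higher on array 2, or 85.7%. A departure above 0.5 was found in 5 of the 11, namely LHCB4.2, PSBW, PSB27, AT2G26500 and ATPC1, and in 8.96% of all loci. Of the 7 further genes, 3 had such a departure. These counts were made after the values had been seen, the genes share the arrays and their RNA, and the counts are given with no test. Across all named loci array 2 correlated with array 1 at r = 0.512 and with array 3 at r = 0.504, whereas arrays 1 and 3 correlated at 0.759. The part of array 2's RNA or labelling in the high ratios of LHCB4.2 and PSBW was not tested.

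**Figure D4:**
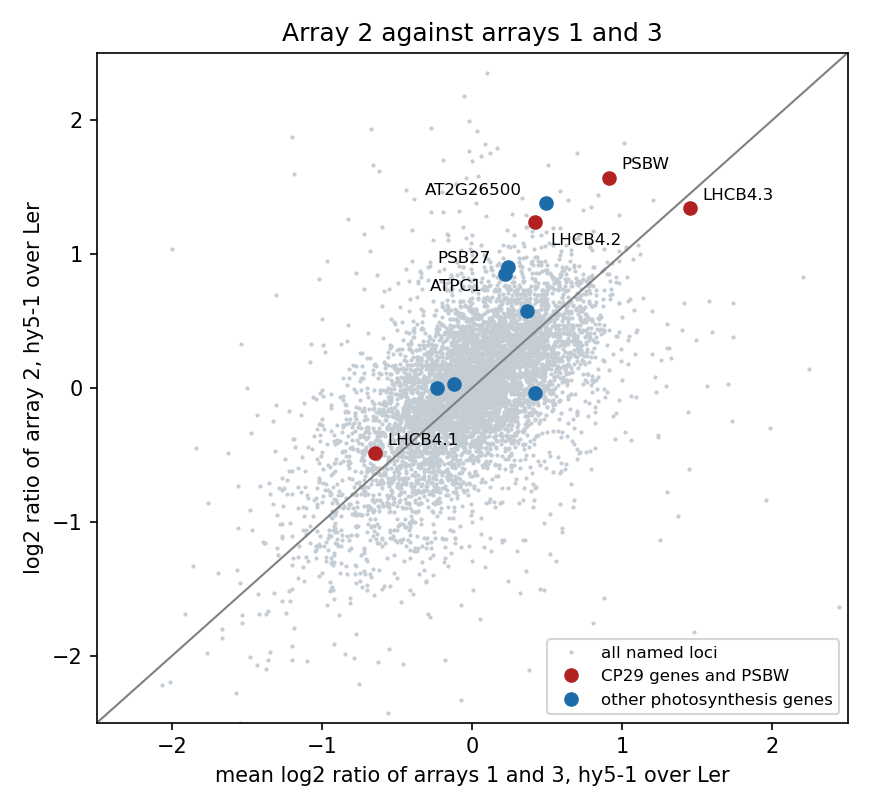
Log2 ratio on array 2 (vertical axis) against the mean of arrays 1 and 3 (horizontal axis), hy5-1 over Ler, with all named loci as grey points, the CP29 genes and PSBW in red and the other 7 photosynthesis genes in blue; the line marks equal values and 8 loci fall outside the axes. LHCB4.2 and PSBW lie above the line by 0.82 and 0.66, and LHCB4.1 and LHCB4.3 lie close to it.

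The spots beside the 4 probes were read as well. Their places follow the grid order that was found from the values, not given coordinates. The median log2 ratio of the 8 spots around LHCB4.3 was 0.06, 0.085 and 0.025 on arrays 1, 2 and 3, and that around PSBW was -0.035, -0.045 and 0.02. Around LHCB4.2 it was -0.08, 0.025 and -0.06. Around LHCB4.1 it was 0.38 on array 1, 0.075 on array 2 and -0.07 on array 3. Single neighbours went further than these medians. A spot beside LHCB4.2 reached 1.12 on array 1 and a spot there reached 1.66 on array 3, both above LHCB4.2 itself, whereas on array 2 the highest neighbour was at 0.25. Around PSBW single spots ran from -0.93 to 0.54 on array 2, around LHCB4.3 none exceeded 0.69 on any array, and around LHCB4.1 none was below -0.33.

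Loci with the most similar values on the 3 arrays were found by the root mean square difference of their log2 ratios over the 3 arrays. LHCB4.3 had no locus within 0.20, and its nearest, AT4G08910, was 0.22 away with values of 1.43, 1.4 and 0.98. AT5G59410 and AT3G13150 followed at 0.33 and 0.37. LHCB4.1 had 246 loci within 0.20, the nearest being AT1G10040, AT2G25320 and AT3G44400 at 0.05 each. These counts go with the means already given. LHCB4.3 ranked 4 from the top by the mean, where loci are sparse, and LHCB4.1 lay nearer the bulk of loci.

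LHCB4.2 had 25 loci within 0.20 on the same measure. The nearest were AT4G33040 at 0.06, MCCA (AT1G03090), a subunit of the mitochondrial methylcrotonyl-CoA carboxylase, at 0.09, and PRXQ (AT3G26060), a chloroplast peroxiredoxin, at 0.09. PRXQ had log2 ratios of 0.53, 1.16 and 0.45 on the 3 arrays, with array 2 the highest there too and arrays 1 and 3 in the other order. PSBW had 3 loci within 0.20, namely AT5G60720 at 0.11, VPS60.2 (AT5G04850) at 0.18 and AT1G74370 at 0.19. With 3 arrays, such likeness rests on 3 values per gene.

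The named loci next to the 4 genes on their chromosomes were also read. Of these 8 neighbours 1 passed the limma threshold, against 17.2% of all loci, and without array 2, where 19.1% of loci passed, AT2G40230, AT2G39980 and AT2G30530 did. The neighbour that passed in the fit of all 3 arrays was AT2G40230, which begins 55656 bases beyond the end of LHCB4.3 and rose in hy5-1, with log2 ratios of 0.75, 0.89 and 0.54 and a limma adjusted p of 0.0224. With the arrays so multiplied it did not pass, at 0.0618. On the other side of LHCB4.3, AT2G39980 had -0.85, 0.95 and -1.09. The neighbours of LHCB4.1, AT5G01480 and AT5G01610, had means of 0.01 and -0.15, and those of LHCB4.2, AT3G08920 and AT3G08960, had -0.18 and 0.05. The neighbours of PSBW, AT2G30530 and AT2G30600, had -0.39 and 0.21.

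Each name above depends on the order in which features were matched to values. That order was found from these same values, so the agreement of repeated spots is no independent support for it. For 7 genes spotted 10 times or more, the variance within a gene over the total variance was 0.0347 in the order used and 0.978 with row numbers as given. For 132 loci with 2 or 3 features it was 0.806 in the order used and 0.866 as given. In the order used, the mean log2 ratios of features of one such locus spanned a median of 0.31 and reached 0.94 at the 90th percentile and 1.66 at most. With row numbers as given the spans were smaller, with a median of 0.18 and 0.60 at that percentile. Unlike the variances above, these spans are not set against the total spread in each order, so they do not rank the 2 orders. The mean log2 ratios of all 4 genes were smaller in size than the largest span between features of 1 locus.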

How the data were processed

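The deposited values were 1 number per feature and array, read as log2 ratios of the 2 channels made by the authors; no source used here states the scanner, the normalization or the base. All 3 columns were used as deposited. Of 45220 features, 7440 carried a gene in the platform annotation, each 1 gene, and these matched 7234 loci of the RefSeq table of TAIR10.1. Features were matched to values by a grid order that was found from the values, and features of a locus were averaged.

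Ratios were tested against 0 with limma 3.58.1 in R 4.3.3 (intercept, empirical Bayes, 2 residual degrees of freedom), adjusted over all loci at a threshold of 0.05. The procedure was tested on simulated data with noise of equal size on each array, whereas the real arrays correlated unequally. The number of arrays limits the precision. Genes, lists and tests were chosen with earlier results of these data known. The text names the 4 genes, the 3 loci nearest to each, all measured list genes and the adjacent named loci. Alternatives were centring, scaling, the row order, moderation, a 2-fold minimum and leaving out each array. Promoter motifs and probe sequences were not analysed here.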

Additional observations from a re-analysis of the deposited data

How the results depend on the processing

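The mean log2 ratios of the 4 genes could not turn when an array was left out, since each gene had 1 sign on all arrays. Leaving out 1 of 3 values cannot move a mean by more than the SD, whatever the signs. Centring changed nothing because the medians of the named loci were 0. Row numbers as given assign other spots to the genes. With them the means were -0.38 for LHCB4.1, 0.0067 for LHCB4.2, 0.01 for LHCB4.3 and 0.033 for PSBW. Of the 7 further photosynthesis genes, 1 passed there, PAM68, and the median of their mean log2 ratios was 0.01. Leaving out an array gave -0.65 to -0.565 for LHCB4.1, 0.42 to 0.845 for LHCB4.2, 1.34 to 1.45 for LHCB4.3 and 0.91 to 1.29 for PSBW. The loci past the limma threshold, 1242 in all, numbered 491 with row numbers as given and 151 with a 2-fold minimum. With an unmoderated statistic there were 0, and 1625 at an unadjusted p under 0.05. Leaving out an array gave 0 to 1380, with 0 by limma without replicate 1 (1613 at an unadjusted p under 0.05) and without replicate 3 (1585), so no call on the further genes can be read there. Scaling to a common median absolute deviation gave 1315 loci when the deviation was taken over named loci. Taken over all features, a setting chosen after seeing the data, it gave 391; there array 2 was multiplied by 1.31, and LHCB4.2 and PSBW reached 1.62 and 2.06 on it. Beyond that the cause was not tested. No paired analysis was possible because the 3 arrays make up 1 group, and a ratio sets hy5-1 against Ler within an array. Signal over background is unknown, so background correction and a filter on dim spots were not run.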
